A study of Homo sapiens with 16 samples.

Results

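The EGR and IER immediate early genes measured here were EGR1, EGR2, EGR3, IER2, IER3 and IER5. Their members were taken by gene symbol, and 7 of the 24526 probes on the array carried 1 of these 6 symbols, of 18631 symbols in all. EGR3 had 2 probes and each of the other genes had 1. SUM225 (SUM-225), a breast cancer line that carries HER2 amplification and over expresses the receptor, was treated with 1 µM CP724,714, a small molecule inhibitor of the HER2 kinase. Parallel cultures, grown in Ham's F-12 with fetal bovine serum, insulin and hydrocortisone according to the labels, were taken at 3 h intervals up to 45 h, and an Illumina bead array was run on the total RNA of each, so that 16 arrays covered 16 time points. The paper's methods instead describe a serum-free medium lacking EGF and insulin for SUM225, and which medium applied during treatment is not settled. For the time courses of MCF10A and its derived lines the paper states that the medium was also renewed when treatment began. Whether this was done for SUM225 is not stated. All cultures of this single line received the inhibitor, with no replicate at any time point and no untreated time course among the samples analysed. Effects of the inhibitor and of time or handling in culture, such as a change of medium, cannot be told apart. The standard errors given below come from models over all 16 arrays.

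Immediate early genes are transcribed within minutes of growth factor signalling, without the need for new protein synthesis, and most of their transcripts are short-lived. In epithelial cells with an active HER2 receptor the signal passes largely through the RAS, RAF, MEK and ERK kinases to SRF and its ternary complex factor partners, which bind CArG boxes and neighbouring ETS motifs in the promoters of genes such as EGR1. The EGR proteins are zinc finger transcription factors that bind GC-rich DNA and are held in check by the NAB corepressors, whereas the IER proteins are not zinc finger factors. IER2 and IER5 belong to a common protein family to which IER3 does not belong. IER3 is a stress and survival protein and a substrate of ERK, IER2 is a nuclear protein linked to cell motility, and IER5 is a regulator of HSF1, the factor that drives chaperone genes.

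The RefSeq table of promoter windows (GRCh38.p14, 250 bases before to 50 bases after each gene's start) held 4 of the 6 genes, namely EGR1, EGR2, IER2 and IER5. The sequences before the start are shown for EGR1, whose signal was low at 3 h and again late, for EGR2, which has the same type of element but was almost undetected, and for IER5, which was low at 3 h without this element in its window. Each is given 5′ to 3′ in the direction of transcription, in lower case with CArG boxes in capitals.
EGR1 (GRCh38.p14, chr5:138465229-138465478, plus strand): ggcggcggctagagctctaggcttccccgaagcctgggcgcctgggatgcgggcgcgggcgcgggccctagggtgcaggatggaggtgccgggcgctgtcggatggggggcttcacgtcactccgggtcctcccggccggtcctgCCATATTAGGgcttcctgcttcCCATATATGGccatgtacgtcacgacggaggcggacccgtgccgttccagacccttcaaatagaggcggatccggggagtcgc
EGR2 (GRCh38.p14, chr10:62816367-62816616, minus strand, the most downstream of 3 windows): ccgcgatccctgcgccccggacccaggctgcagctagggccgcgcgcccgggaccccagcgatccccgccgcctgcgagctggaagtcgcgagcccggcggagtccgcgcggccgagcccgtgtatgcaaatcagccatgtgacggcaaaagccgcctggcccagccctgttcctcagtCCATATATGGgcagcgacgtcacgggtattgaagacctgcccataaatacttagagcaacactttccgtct
IER5 (GRCh38.p14, chr1:181088450-181088699, plus strand): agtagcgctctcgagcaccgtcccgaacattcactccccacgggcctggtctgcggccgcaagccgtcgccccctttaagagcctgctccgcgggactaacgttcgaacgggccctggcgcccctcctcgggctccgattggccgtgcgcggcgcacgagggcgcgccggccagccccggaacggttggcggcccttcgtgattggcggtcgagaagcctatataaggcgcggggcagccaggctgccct

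A CArG box was searched on both strands of the whole 300-base windows, and 1.29% of the 35116 windows of all genes held at least 1. The EGR1 window held 2, CCATATTAGG from 105 to 96 bases before the start and CCATATATGG from 83 to 74 bases before it. The EGR2 window shown held 1 box, from 71 to 62 bases before its start, with the same letters as the second box of EGR1. No CArG box was matched in the windows of IER2 and IER5. The EGR-type motif GCGNGGGCG, in 9.43% of all windows, was matched once in EGR1 and once in another window of EGR2. The motif CGTCA, the core of a CREB site and present in 24.6% of windows, was matched 2 times in EGR1, 2 times in the EGR2 window shown and 1 time in IER2, and the ETS-type motif CCGGAAG, present in 10.3%, was matched 1 time in IER2. These matches overlapped no CArG box, and they describe the letters of the windows only.

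The identity of the cells was checked first. All 8 markers fixed for HER2-amplified luminal epithelium were detected on 16 of 16 arrays. Of the markers of other cells, PTPRC and PDGFRB were detected on 0 arrays, CD3E and CDH5 on 1, and COL1A1 and COL1A2 on 5 each, while CD68 and PECAM1 were detected on 16, and of the 4 that were tested (CD68, COL1A1, COL1A2 and PECAM1) none was called in limma between 0 h and 3 to 9 h (adjusted p between 0.385 and 0.670). Over the whole course CD68 had a called linear rise (0.38, limma adjusted p = 0.0341). COL1A1 was called lower in a later comparison (-0.59, limma adjusted p = 0.0425). The epithelial markers were not all steady either. GRB7 was higher by 0.58 at 3 to 9 h than at 0 h. KRT8 and KRT18 had called linear falls over the course (-0.68 and -0.74, limma adjusted p = 2.14e-05 and 7.73e-06). A detected probe is one with a detection p-value under 0.05 on that array. Median signal intensity over all probes was between 242 and 384 per array, and 57.5% to 61.5% of probes were detected. Levels below are log2 values after background correction and quantile normalization, so that 1 unit is a doubling, and levels of different probes are not compared because each probe binds with its own efficiency.

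IER3 was the member with the largest early change. Its level fell by 2.77 log2 units between 0 h and the arrays of 3 to 9 h, came back in part at 12 to 21 h, and then declined in 2 further steps to the lowest levels of the course at 42 h and 45 h. The other members moved less. EGR1 and IER5 were low at 3 h and back within 0.4 log2 units of their starting level at 9 h, EGR1 was low again from 36 h, IER2 was low over 3 to 9 h, EGR3 was not lower early on, and EGR2 was near background throughout.

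**Figure D1:**
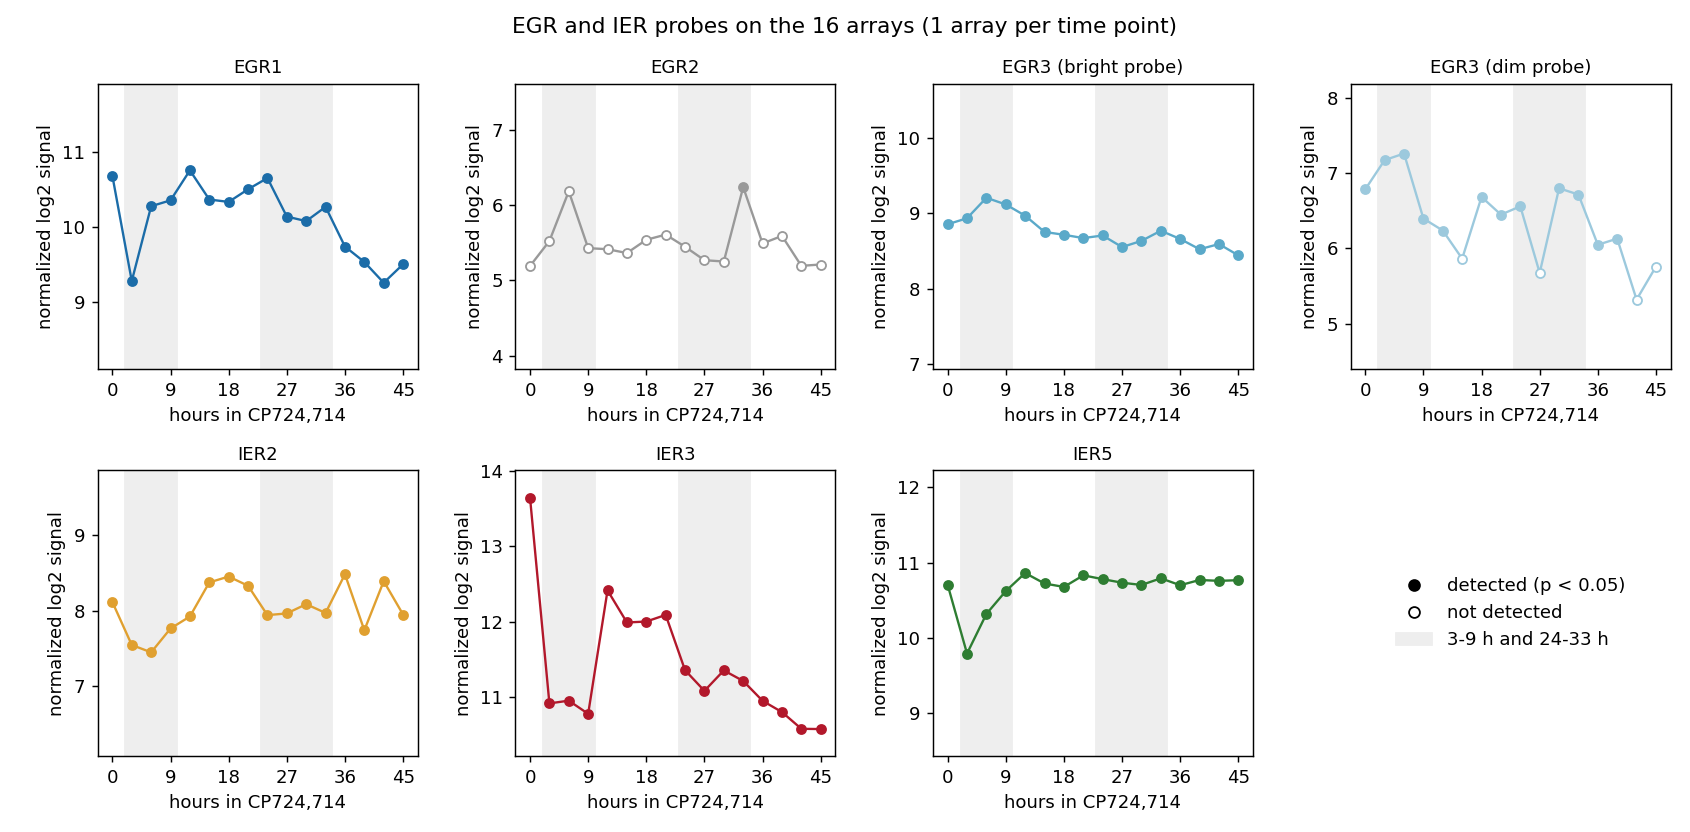
Normalized log2 signal (vertical axis) of each of the 7 probes against hours in CP724,714 (horizontal axis), with 1 array per point and every panel spanning the same number of log2 units. Filled points are detected arrays and open points are not, the grey bands mark 3 to 9 h and 24 to 33 h, IER3 starts at 13.65 and ends at 10.57, and EGR2 is detected at 33 h only.

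EGR1 (chromosome 5, 138465479 to 138469303) was detected on 16 of 16 arrays. Its level was 10.68 at 0 h and 9.28, 10.28 and 10.35 on the next 3 arrays (3, 6 and 9 h). From 12 h to 21 h it was 10.75, 10.36, 10.33 and 10.50, and from 24 h to 33 h it was 10.65, 10.14, 10.08 and 10.27. Thus the 3 h array alone was far below the starting level during the first day, and the highest level of the course was that of 12 h. From 36 h to 45 h the level was 9.74, 9.53, 9.26 and 9.50, and all these 4 arrays were below every array from 6 h to 33 h. On the scale of the deposited signal the 0 h and 3 h arrays read 1710 and 614.

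EGR2 (chromosome 10, 62811996 to 62819167) was detected on 1 of 16 arrays, at 33 h with a detection p of 0.0303. Its deposited signals were between 181 and 249, with a median of 204. The probe was therefore not tested, and no course is described for it.

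EGR3 was read by 2 probes, ILMN_1724280 and ILMN_1722781, the first brighter and detected on 16 arrays and the second dimmer and detected on 12. The level of the brighter probe was 8.86 at 0 h and 8.94, 9.21 and 9.12 at 3, 6 and 9 h. It was 8.97, 8.75, 8.72 and 8.67 from 12 h to 21 h, 8.71, 8.55, 8.64 and 8.77 from 24 h to 33 h, and 8.66, 8.52, 8.59 and 8.44 from 36 h to 45 h. The course was thus flat to slightly high over the first 9 h and then sloped down, with a whole range of 0.77 log2 units. The dimmer probe varied between 5.32 at 42 h and 7.26 at 6 h with a median of 6.42, and the arrays at which it was not detected were those of 15, 27, 42 and 45 h. Both probes of EGR3 were highest at 6 h, and their levels had a Pearson r of 0.62 and a Spearman rho of 0.61 over the 16 arrays, which share normalization.

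IER2 (chromosome 19, 13150411 to 13154911) was detected on 16 arrays. Its level was 8.11 at 0 h and 7.54, 7.44 and 7.76 at 3, 6 and 9 h. It was 7.92, 8.37, 8.45 and 8.33 from 12 h to 21 h and 7.94, 7.96, 8.08 and 7.97 from 24 h to 33 h. The 3 arrays of 3, 6 and 9 h included the 2 lowest of the course, and only the 39 h array (7.74) was also below the array of 9 h. From 36 h to 45 h the level alternated, with 8.48, 7.74, 8.39 and 7.95.

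IER3 (chromosome 6, 30743199 to 30744547) was detected on 16 arrays, and its deposited signal was 12732 at 0 h, 17.2% of the brightest probe of that array. Its level was 13.65 at 0 h and 10.91, 10.95 and 10.77 at 3, 6 and 9 h. It was 12.42, 11.99, 12.00 and 12.09 from 12 h to 21 h, 11.35, 11.08, 11.35 and 11.21 from 24 h to 33 h, and 10.95, 10.80, 10.57 and 10.57 from 36 h to 45 h. The 0 h array was above all others, and none of the 4 later windows overlapped the window next to it. Of all tested probes, 26.8% likewise had all arrays of 3 to 9 h below the 0 h array. In the comparisons that followed, 15.9%, 9.4% and 6.19% of probes had no overlap in the direction of IER3. Less transcript in every cell and fewer expressing cells cannot be told apart in such bulk RNA. All 15 later arrays were at least 1.7-fold below the 0 h array, from 2.35-fold at 12 h to 8.44-fold at 45 h, as for 0.261% of all tested probes.

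IER5 (chromosome 1, 181088700 to 181092900) was detected on 16 arrays. Its level was 10.71 at 0 h and 9.79, 10.32 and 10.62 on the next 3 arrays (3, 6 and 9 h). The 12 arrays from 12 h to 45 h lay between 10.68 and 10.86, so that after its low point at 3 h IER5 was the steadiest member. The SD of the 4 arrays was 0.09 from 12 h to 21 h, 0.04 from 24 h to 33 h and 0.03 from 36 h to 45 h.

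**Figure D2:**
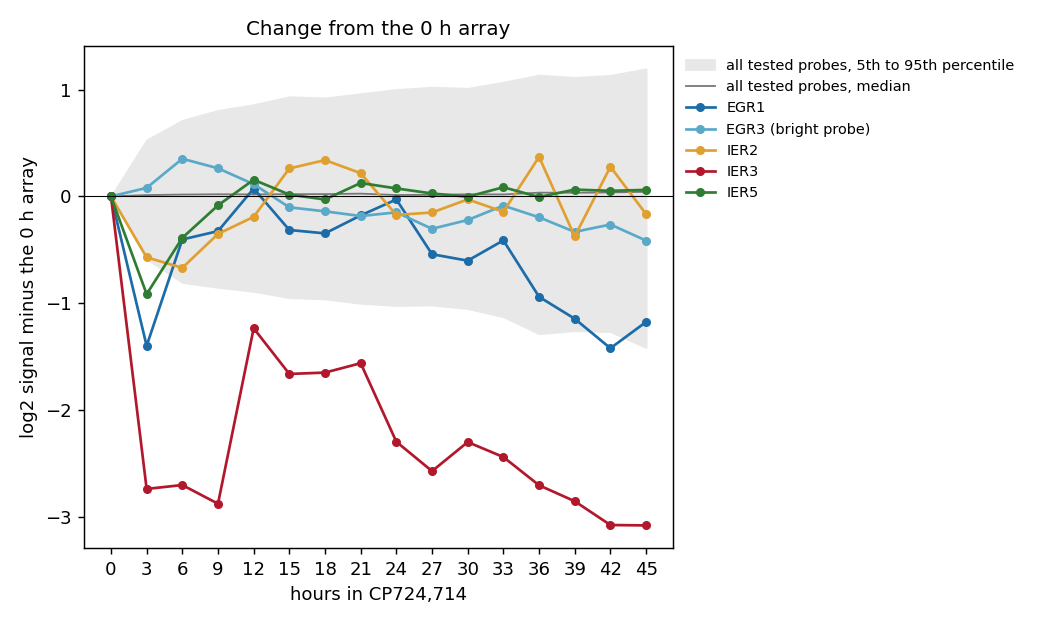
Difference of each array from the 0 h array in log2 units (vertical axis) against hours in CP724,714 for EGR1, the brighter EGR3 probe, IER2, IER3 and IER5, with the median of all tested probes as a grey line and their 5th to 95th percentiles as a grey band. IER3 stays below the band at every later time, EGR1 is below it at 3 h and 42 h, and IER5 is below it at 3 h. From 9 h on IER5 is within 0.16 log2 units of its 0 h level.

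The early fall was addressed by a test of the arrays of 3, 6 and 9 h against the 0 h array in a limma model with 5 time windows, fitted to the 16110 probes detected on at least 3 arrays. The 6 probes of EGR1, EGR3, IER2, IER3 and IER5 passed this filter. The 0 h window held 1 array, which the model assumed to vary like the others. IER3 was 13.65 at 0 h and 10.88 ± 0.09 (SD, n = 3) at 3 to 9 h, a difference of -2.77 ± 0.17 (SE) log2 units or 6.82-fold, with an adjusted p of 3.68e-08 in limma over all probes. It was 1 of 6 member probes called, where 2.33% of all tested probes were called and 1.19% were called lower, and it held the 6th largest fall of all tested probes. EGR1 differed by -0.71 ± 0.31 (adjusted p = 0.251), IER2 by -0.53 ± 0.26 (adjusted p = 0.323) and IER5 by -0.46 ± 0.20 (adjusted p = 0.244). Neither EGR3 probe passed, at 0.23 ± 0.17 (adjusted p = 0.539) for the brighter and 0.16 ± 0.44 (adjusted p = 0.902) for the dimmer. The 3 arrays of 3, 6 and 9 h were all below the 0 h array for EGR1, IER2, IER3 and IER5 and all above it for the brighter EGR3 probe, but this held in 1 direction for 26.8% and in the other for 30.4% of all probes. The median change of all tested probes was 0.01.

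**Figure D3:**
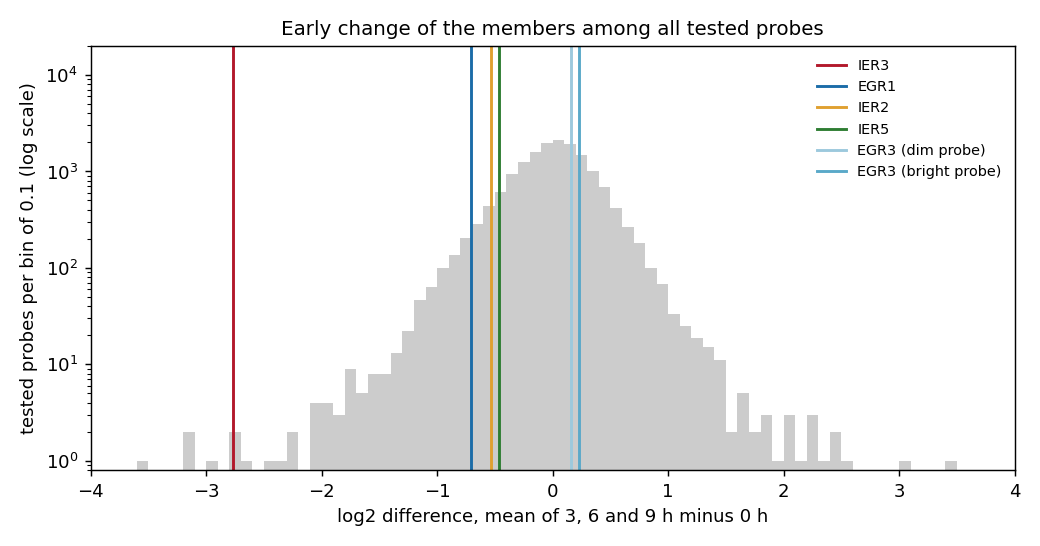
Number of tested probes on a log scale (vertical axis) by their log2 difference between the mean of 3, 6 and 9 h and the 0 h array (horizontal axis, bins of 0.1), with a coloured line at the value of each member probe. IER3 lies at -2.77 in the far left tail, EGR1, IER2 and IER5 lie between -0.71 and -0.46 on the left shoulder, and both EGR3 probes lie right of 0.

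Because EGR1 and IER5 were lower at 3 h than at 6 h and 9 h, the 3 h array was also set against the 0 h array. At 3 h IER3 was 6.66-fold, EGR1 2.63-fold and IER5 1.88-fold below 0 h, so that 3 of 6 member probes were at least 1.7-fold lower, compared with 2.43% of all tested probes. IER2 was 1.48-fold lower, and both EGR3 probes were higher than at 0 h by 0.08 and 0.39 log2 units. These values compare 1 array with 1 array and are a description. A model with the 3 h array as a window of its own, built because of these values, called EGR1, IER3 and IER5 (0.714% of all probes were called and 0.397% called lower), which restates the values that prompted it and adds no support. At 6 h only IER3 of the 6 probes was at least 1.7-fold lower than at 0 h, compared with 5.65% of all probes.

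The next comparison asked whether the genes came back between 3 to 9 h and 12 to 21 h. IER3 rose by 1.24 ± 0.12 log2 units (2.37-fold) to 12.12 ± 0.20 (SD, n = 4), with a limma adjusted p of 3.51e-07, and remained 2.35-fold to 3.16-fold below its 0 h level on these arrays. IER2 rose by 0.69 ± 0.17 to 8.27 ± 0.24 (SD, n = 4; limma adjusted p = 0.00551). IER5 rose by 0.53 ± 0.13 to 10.77 ± 0.09 (SD, n = 4; limma adjusted p = 0.00519), and by 0.30 without the 3 h array. The brighter EGR3 probe fell by 0.31 ± 0.11 (limma adjusted p = 0.0473), a call that was lost when any 1 of 12 arrays was left out. EGR1 differed by 0.52 ± 0.20 (limma adjusted p = 0.0650), by 0.17 without the 3 h array (limma adjusted p = 0.472), and passed without the 6 h or the 9 h array and with median scaling (0.61, limma adjusted p = 0.0213). The brighter EGR3 probe did not pass with median scaling (-0.21, limma adjusted p = 0.201). The dimmer EGR3 probe differed by -0.64 ± 0.29 (limma adjusted p = 0.115). Of all tested probes 27.7% were called in this comparison, 14.8% higher and 12.9% lower. The arrays of the 2 windows did not overlap for IER2, IER3 and IER5, as for 15.9% of probes in the same direction.

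Between 12 to 21 h and 24 to 33 h IER3 fell by 0.87 ± 0.11 log2 units to 11.25 ± 0.13 (SD, n = 4; limma adjusted p = 3.58e-05), with no overlap between the windows. It was the only member called, where 9.30% of probes were called and 4.11% were called lower, and 9.40% of probes had all later arrays lower. EGR1 differed by -0.20 ± 0.19, IER2 by -0.28 ± 0.16, the EGR3 probes by -0.11 ± 0.10 and 0.13 ± 0.27, and IER5 by -0.02 ± 0.12.

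Between 24 to 33 h and 36 to 45 h EGR1 fell by 0.77 ± 0.19 log2 units (1.71-fold), from 10.28 ± 0.26 to 9.51 ± 0.20 (SD, n = 4 each), with a limma adjusted p of 0.0200. The difference was -0.65 without the 24 h array (limma adjusted p = 0.106) and -0.69 without the 42 h array (limma adjusted p = 0.0808). IER3 fell by 0.53 ± 0.11 to 10.72 ± 0.18 (SD, n = 4; limma adjusted p = 0.00508). These were 2 of 6 member probes, where 4.01% of probes were called and 3.11% were called lower. In neither gene did the windows overlap, as for 6.19% of all probes in this direction. The dimmer EGR3 probe differed by -0.62 ± 0.27 (limma adjusted p = 0.266), the brighter by -0.11 ± 0.10, IER2 by 0.15 ± 0.16 and IER5 by -0.00359 ± 0.12.

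The last 3 comparisons join sets of 4 consecutive arrays that were noticed as sets in earlier results of these data. The labels name no batch, and a difference between sets and a change between these windows cannot be told apart. The arrays of 0, 3, 6 and 9 h were likewise noticed as 1 set, a grouping that the labels do not give. When the windows were moved by 1 array, IER3 fell by 2.39 log2 units after 0 h (limma adjusted p = 0.00773) and IER2 rose by 0.61 in the second comparison (limma adjusted p = 0.0294), while IER3 (0.60) and IER5 (0.35) lost their calls there. No member was called in the last 2 comparisons, although the differences of IER3 were -0.71 and -0.50 and the last difference of EGR1 was -0.62.

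**Figure D4:**
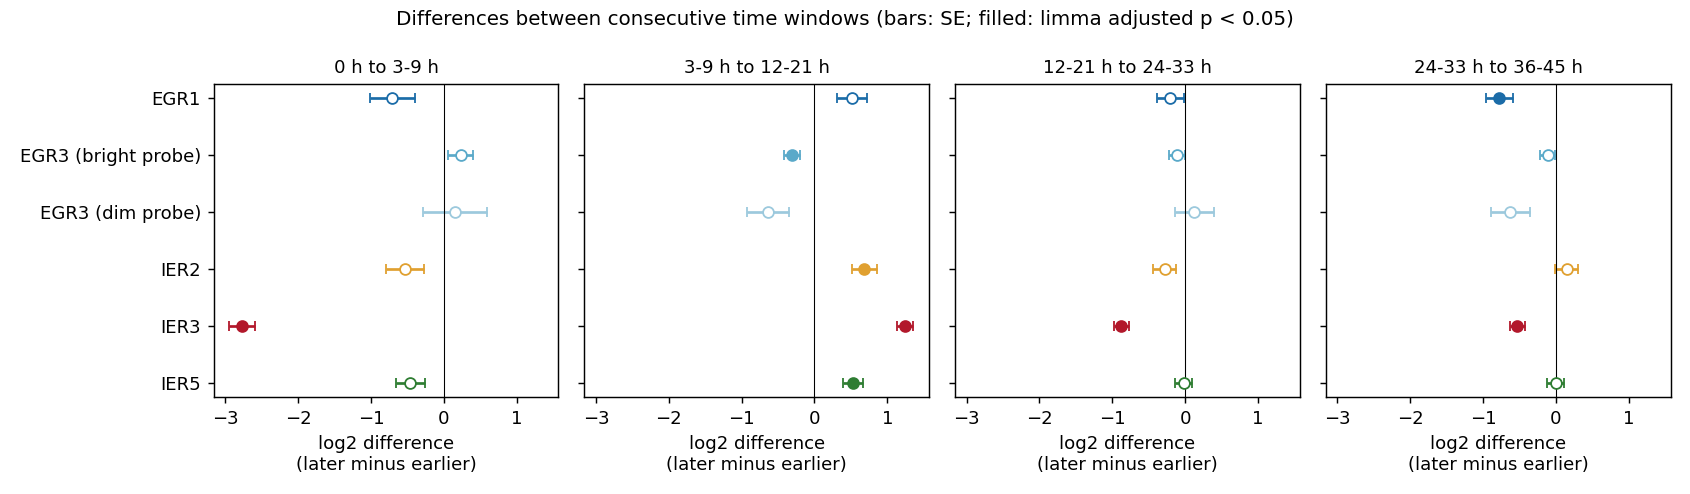
Log2 difference, later minus earlier window (horizontal axes), for the 6 tested probes in the 4 consecutive comparisons, with SE as bars and filled points for an adjusted p under 0.05. IER3 is filled in all 4 panels with values of -2.77, 1.24, -0.87 and -0.53, and EGR1 is filled only in the last.

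Over the whole course, EGR1 (limma F-test of a cubic in hours, adjusted p = 0.00748) and both EGR3 probes (adjusted p = 0.00905 and 0.0255) depended on time, and 51.3% of all tested probes did. IER3 (adjusted p = 0.0593), IER5 (adjusted p = 0.101) and IER2 (adjusted p = 0.396) did not pass. A cubic cannot follow a sharp early drop and return, so not passing does not mean a steady level. The residual SD of IER3 in this fit was 0.73, where the median of all tested probes was 0.19. IER3 passed with median scaling (adjusted p = 0.0456), cyclic loess (adjusted p = 0.0374) and array weights (adjusted p = 0.0137) and without the 3 h, 6 h or 9 h array (adjusted p = 0.0118, 0.0281 and 0.0275), and IER5 passed with array weights (adjusted p = 0.000580). The call of the dimmer EGR3 probe was lost without the 3 h or the 42 h array. Without the 0 h array all 6 probes passed.

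A linear change over 45 h was called for 5 of 6 member probes, 4 lower and 1 higher, where 47.7% of all probes were called, 21.7% lower and 26.0% higher. It was -0.81 ± 0.25 log2 units for EGR1 (limma adjusted p = 0.0123), -0.55 ± 0.13 and -1.10 ± 0.32 for the brighter and the dimmer EGR3 probe (limma adjusted p = 0.00133 and 0.00712), -1.45 ± 0.48 for IER3 (limma adjusted p = 0.0170) and 0.41 ± 0.17 for IER5 (limma adjusted p = 0.0497). IER2 changed by 0.34 ± 0.23 (limma adjusted p = 0.243). The slopes of EGR1 and IER3 rested on the starting array, for without it they were -0.23 (limma adjusted p = 0.370) and -0.22 (limma adjusted p = 0.584). The slope of IER2 was 0.70 without that array (limma adjusted p = 0.0221), and the slope of IER5 was 0.18 without the 3 h array (limma adjusted p = 0.237) and lost its call without any 1 of 14 arrays. The slopes of the EGR3 probes kept their calls without any 1 array.

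The regulators of these genes were examined next. SRF, which binds CArG boxes, was 11.63 at 0 h and 10.78 at 3 h. It fell by 0.70 ± 0.17 log2 units between 0 h and 3 to 9 h (limma adjusted p = 0.0358) and rose by 0.41 ± 0.11 in the next comparison (limma adjusted p = 0.0101). It was the 1 called of 6 tested genes in a list of SRF, the ternary complex factors ELK1, ELK3 and ELK4 and the coactivators MKL1 and MKL2, whose median early change was -0.10. Of all tested probes 2.33% were called early and 1.19% were called lower. The NAB corepressors did not pass early, with -0.10 ± 0.14 for NAB1 (limma adjusted p = 0.779) and -0.31 ± 0.38 for NAB2 (limma adjusted p = 0.745). NAB1 rose by 0.42 ± 0.09 between 3 to 9 h and 12 to 21 h (limma adjusted p = 0.00160).

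Other immediate early genes, a list of 31 of which 27 were tested, had a median early change of -0.33. Between 0 h and 3 to 9 h 6 fell and 0 rose, where 2.33% of all probes were called and 1.19% called lower. The largest falls were those of MYC, a growth-promoting transcription factor (-2.40 ± 0.29, limma adjusted p = 8.14e-05), CTGF, a matricellular protein (-2.02 ± 0.23, limma adjusted p = 3.63e-05), and FOSL1, an AP-1 subunit (-1.78 ± 0.36, limma adjusted p = 0.00912). In the second comparison 12 rose, where 14.8% of all probes were called higher and 12.9% lower, and the antiproliferative gene BTG2 (-0.49 ± 0.17, limma adjusted p = 0.0352) and the urokinase receptor gene PLAUR (-0.39 ± 0.13, limma adjusted p = 0.0256) fell. FOS went from 9.92 at 0 h to 8.18 at 3 h and differed by -0.96 ± 0.32 over 3 to 9 h (limma adjusted p = 0.136).

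The genes whose transcription is known to follow ERK activity, feedback inhibitors and delayed early genes, had a larger median early change than the immediate early genes. Of 14 listed, 12 were tested, and their median change between 0 h and 3 to 9 h was -1.91 compared with 0.01 for all probes. Between these times 10 fell and 0 rose, where 1.19% of all probes were called lower. DUSP6, an ERK phosphatase, fell by 3.15 ± 0.35 (limma adjusted p = 2.51e-05), SPRY4, an inhibitor of RAS signalling, fell by 3.10 ± 0.42 (limma adjusted p = 0.000261), and PHLDA1, a growth factor-induced regulator of cell survival, fell by 2.66 ± 0.34 (limma adjusted p = 0.000164). These same 3 genes were the most like IER3 of all tested genes over the 16 arrays, with Pearson r of 0.96, 0.95 and 0.93. They were named for the largest early falls of the list. IER3 shares that fall, so the likeness is partly built in and adds no support. For DUSP6 the r of 0.96 came from a different probe (ILMN_1677466) than the fall of 3.15 (ILMN_2396020).

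Of 10 textbook targets of EGR1, 9 were tested, with a median change of -0.31 between 0 h and 3 to 9 h. In this comparison, where 1.19% of all probes were called lower, 1 of these fell and 0 rose. It was F3, the initiator of blood coagulation (-1.37 ± 0.27, limma adjusted p = 0.00783). Between 24 to 33 h and 36 to 45 h 0 of the 9 fell, where 3.11% of all probes did, and 1 rose, the transcriptional regulator ID3 (0.35 ± 0.07, limma adjusted p = 0.00204). Of 5 chaperone genes driven by HSF1, listed because of IER5, 4 fell and 0 rose between 0 h and 3 to 9 h, with a median change of -0.95. Of all tested probes 1.19% were called lower in this comparison. The largest changes were those of HSPA1A (-1.36 ± 0.14, limma adjusted p = 7.49e-06), HSPH1 (-0.95 ± 0.21, limma adjusted p = 0.0164) and HSPA1B (-0.95 ± 0.14, limma adjusted p = 0.000627), and DNAJB1 fell by 0.87 ± 0.18 (limma adjusted p = 0.0105). HSPA1A and HSPA1B are near-identical copies, and their probes may read both. The remaining gene, HSPB1, had signals of 68923 to 72588, near the brightest of each array, and its change is limited by the top of the scale. In the second comparison 4 of the 5 rose, where 14.8% of all probes did. Between 12 to 21 h and 24 to 33 h 3 of the 5 fell and 0 rose, where 4.11% of all probes were called lower. Between 24 to 33 h and 36 to 45 h 1 rose and 0 fell, where 4.01% of all probes were called. The gene that rose was HSPA1A (0.40 ± 0.08, limma adjusted p = 0.00610). IER5 itself differed by -0.02 and -0.00359 in these later comparisons. These are transcript levels only, and whether the chaperone changes depend on IER5 was not tested.

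The members were also compared with each other and with all tested genes by the Pearson correlation of their levels over the 16 arrays, given as a description, for the arrays share a time order and their normalization. EGR1 and IER3 had the highest correlation of any pair of members (r = 0.71, Spearman rho = 0.82). IER2 and IER5 had an r of 0.55 but a rho of 0.09, and EGR1 and IER2 an r of 0.08. The brighter EGR3 probe had negative values with IER2 (r = -0.50) and IER5 (r = -0.47). The members thus did not follow 1 common course. The genes most like EGR1 were TMEM92 (r = 0.87), ZC3H12A (r = 0.86), an RNase that degrades inflammatory transcripts, and LRRC31 (r = 0.86). Those most like IER5 were CX3CL1, the chemokine fractalkine (r = 0.93), ZNF319 (r = 0.93) and the homeobox repressor TGIF1 (r = 0.92). For IER2 they were PPP2R4, SEC24B and DCTN5, with r between 0.81 and 0.82. For the brighter EGR3 probe they were VCX2 (r = 0.94), IMPDH1 and FAM26C (r = 0.93 each), and for the dimmer they were ELAC2 (r = 0.82), 15E1.2 (r = 0.81) and HSD17B12 (r = 0.81), so that the 2 probes of this gene had no nearest gene in common.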

How the data were processed

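Total RNA of SUM225 cultures in 1 µM CP724,714 was hybridised to 16 arrays, 1 per time point, grouped by the time in the labels. The authors deposited linear signal intensity values without background subtraction or normalization (lowest 111), and a detection p-value for each probe and array. Array version and scanning software for these samples are not given in the sources used here. Signals were corrected with neqc of limma 3.58.1 (R 4.3.3; normexp with negative controls inferred from detection p, offset 16, quantile normalization, log2). Background correction enlarged the changes of dim probes such as the dimmer EGR3 probe, and a larger offset reduced them. Its linear change was -1.10 as reported, -0.77 with an offset of 50 and -0.40 without background correction. Of all tested probes 392 were at least 1.7-fold lower at 3 h, and 66 without background correction. Probes with detection p under 0.05 on at least 3 arrays (16110) entered lmFit and eBayes with an intensity trend, as a cubic in hours or as 5 windows (0, 3 to 9, 12 to 21, 24 to 33 and 36 to 45 h), two-sided and Benjamini-Hochberg adjusted over all probes, at 0.05. Arrays of a window stood in for replicates, so p-values measure the spread between single cultures over time. The 0 h window held 1 array, which was assumed to vary like the others. The p-values of comparisons with 0 h thus include no measured spread at 0 h. The fits were tested on simulated data.

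The members, lists, windows and tests were chosen with earlier results of these data known. Named genes were all member probes, the 3 genes with the highest Pearson r with each tested member, SRF, NAB1, NAB2 and, per list, up to 3 with the largest early change among those past the threshold, with the brightest probe standing for a gene. FOS, BTG2, PLAUR, ID3 and DNAJB1 lie outside this rule, and their values were known when they were added. Alternatives were no background correction, offset 50, median scaling, cyclic loess, other filters, array weights, terms for sets of arrays, moved windows, a 2-fold threshold, another reference time, and each array left out. Promoter windows and gene positions were from RefSeq (GRCh38.p14). The deposited table states no genome build, and where each probe lies in its transcript was not analysed here. Plots were made in Python 3.11.15 (matplotlib 3.10.9).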

Additional observations from a re-analysis of the deposited data

How the results depend on the processing

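The counts of member probes called kept within 1.5 times of those reported without background correction, with an offset of 50, with median scaling, with cyclic loess and with either other filter on detection, but the members called were not always the same. Median scaling and the absence of a filter lost the brighter EGR3 probe between 3 to 9 h and 12 to 21 h (-0.21 and -0.31), median scaling gained EGR1 there (0.61), and median scaling, cyclic loess and the absence of a filter lost the slope of IER5 (0.43, 0.33 and 0.41). Array weights gave 5 time-dependent probes and 2 called between 0 h and 3 to 9 h, the second being IER5. Far more of all tested probes were called in this early comparison with array weights than the 2.33% reported. The added call is thus not particular to IER5. Array weights also exchanged the slope of EGR1 (-0.48) for that of IER2 (0.59) among the calls. Adding a step at 21 to 24 h to the model left 1 time-dependent probe, EGR1, ended all 5 calls of a linear trend, gave 1 such call for IER2 (1.57), and turned the slope of IER3 to 0.71. The 12 h set of arrays as a factor left 0 linear trends and turned the slopes of the dimmer EGR3 probe to 0.11 and of IER2 to -0.22. Windows moved by 1 array gave 2, 0 and 0 calls in the comparisons after the first, and their shares over all probes are not given here. The moved windows, whose limits lie 1 array later, turned the dimmer EGR3 probe to -0.0181 in the first comparison and to -0.0795 in the third. In the last they turned IER2 to -0.0994 and IER5 to 0.0328. At 6 h in place of 3 h, 1 probe was at least 1.7-fold lower, and with the 3 h array on its own, added after the data were seen, 3 were called. The cause of these shifts was not tested.

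With single arrays omitted, between 2 and 6 member probes depended on time (6 without the 0 h array), between 4 and 5 had a linear trend, and the 4 consecutive comparisons had 1, 3 to 5, 1 and 1 to 2 calls. The estimates that changed sign were small and uncalled. They ranged from -0.00015 to 0.43 for the dimmer EGR3 probe in the first comparison and from -0.0198 to 0.38 between 12 to 21 h and 24 to 33 h, where IER5 ranged from -0.0531 to 0.00844, and from -0.0200 to 0.0126 for IER5 in the last. No paired analysis was possible because no time was measured on more than 1 array. The number of arrays limits every estimate, and the dimmer EGR3 probe and EGR2 are limited by signals near background.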
